A study of Mus musculus with 12 samples.

Results

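The 9 genes described here write, copy, read out or remove DNA methylation in mouse embryonic stem (ES) cells. They are the DNA methyltransferase genes Dnmt1, Dnmt3a, Dnmt3b, Dnmt3c and Dnmt3l, the Dnmt1 partner Uhrf1, and Tet1, Tet2 and Tet3. They were taken by name from the 54446 genes listed, and all 9 averaged 1 TPM or more over the 12 libraries, as did 15727 genes in all (TPM is a length-corrected share of a library's RNA). RNA sequencing of total RNA had been performed on 2 lines, KH and DNMT3ABKO, at 0, 72 and 144 h of INK128 (Ink128 in the labels), an inhibitor of the growth kinase mTOR that brings ES cells into a dormancy-like paused state, with 2 libraries per group. KH was the wild-type line (KH2 in the study's methods), and DNMT3ABKO carried a knockout of both Dnmt3a and Dnmt3b. The labels place E14 before both names, whereas per the methods both KH2 and the Dnmt3a/b knockout grew on inactivated feeder fibroblasts, and E14 cells grew without feeders. All groups shared a sort of viable cells before RNA extraction. Each genotype was 1 line, untreated cultures aged 72 or 144 h were not analysed here, and the labels do not say that the 2 libraries of a group came from separate cultures, although the study states in general that its experiments were repeated independently. The p-values measure the spread between these libraries.

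DNA methylation is set and erased by enzymes with separate roles. Dnmt1 copies methylation onto the new strand after replication and is brought to half-methylated sites by Uhrf1, whereas Dnmt3a and Dnmt3b methylate DNA de novo and Dnmt3l, which has no catalytic activity, stimulates them. Dnmt3c is a rodent duplicate of Dnmt3b known from the male germ line, and the TET enzymes oxidise methylated cytosine, which opens the way to its removal. ES cells are known for high Dnmt3b, Dnmt3l and Tet1.

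The cell type labels were checked against markers. All 10 ES cell markers were present, and their summed level was 4321 to 4609 TPM at 0 h, 6364 to 6680 TPM at 72 h and 6730 to 6847 TPM at 144 h over both lines. The 14 fibroblast markers summed to 1693 to 1959 TPM at 0 h, 388 to 526 TPM at 72 h and 82.7 to 100.5 TPM at 144 h. All 13 that were tested fell in both lines at both times, where 19.5% to 26.2% of all tested genes did. The 7 macrophage markers summed to 201 to 254 TPM at 0 h and 20.2 to 34.6 TPM at 144 h. At 144 h 2 of the 7 were at 1 TPM or more in each KH library, and 4 and 3 in the DNMT3ABKO libraries. Of the markers, Tyrobp was listed at 0 in 1 KH library at that time. In such bulk samples fewer cells of a type and less RNA per cell cannot be told apart. The part of fibroblast and macrophage RNA in the changes below was not tested. Over the tested genes, the 2 libraries of a group correlated least for untreated DNMT3ABKO (r = 0.985, against 0.9935 to 0.9957 elsewhere). TPM does not keep read depth, and the study's own summary of the depth of its RNA sequencing was not used here.

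TPM gives a share of each library's RNA, so a higher or lower share below need not be a higher or lower amount per cell, and total RNA per cell was not measured by these values. The study reports, from data scaled to added spike-in RNA, that transcription fell globally under mTOR inhibition in wild-type and Dnmt3a/b knockout cells. The shares below are not corrected for that fall.

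Before treatment, the order of levels in KH cells was Dnmt3b, Dnmt3l, Uhrf1, Dnmt1, Tet1, Dnmt3a, Tet2, Dnmt3c and Tet3, from 257 ± 2.53 TPM (SD, n = 2) for Dnmt3b to 4.90 ± 0.0116 TPM for Tet3. No neighbours in this order overlapped in their libraries, although Dnmt1 at 104 ± 1.65 TPM and Tet1 at 100.4 ± 0.870 TPM were close. At 72 h Dnmt3l led at 435 ± 9.58 TPM, Tet1 had moved above Dnmt3b, and Tet2 above Dnmt3a. At 144 h Uhrf1 and Tet1, Dnmt1 and Dnmt3a, and Dnmt3a and Tet2 overlapped in KH cells, so their order was not resolved. DNMT3ABKO cells had Uhrf1 first at 0 h, at 255 ± 18.6 TPM, and Dnmt3l first at 72 and 144 h, and Tet2 and Dnmt3b overlapped at 0 h. Tet3 and Dnmt3c held the last 2 places in all 6 groups, with Dnmt3c last in each except KH cells at 0 h.

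**Figure D1:**
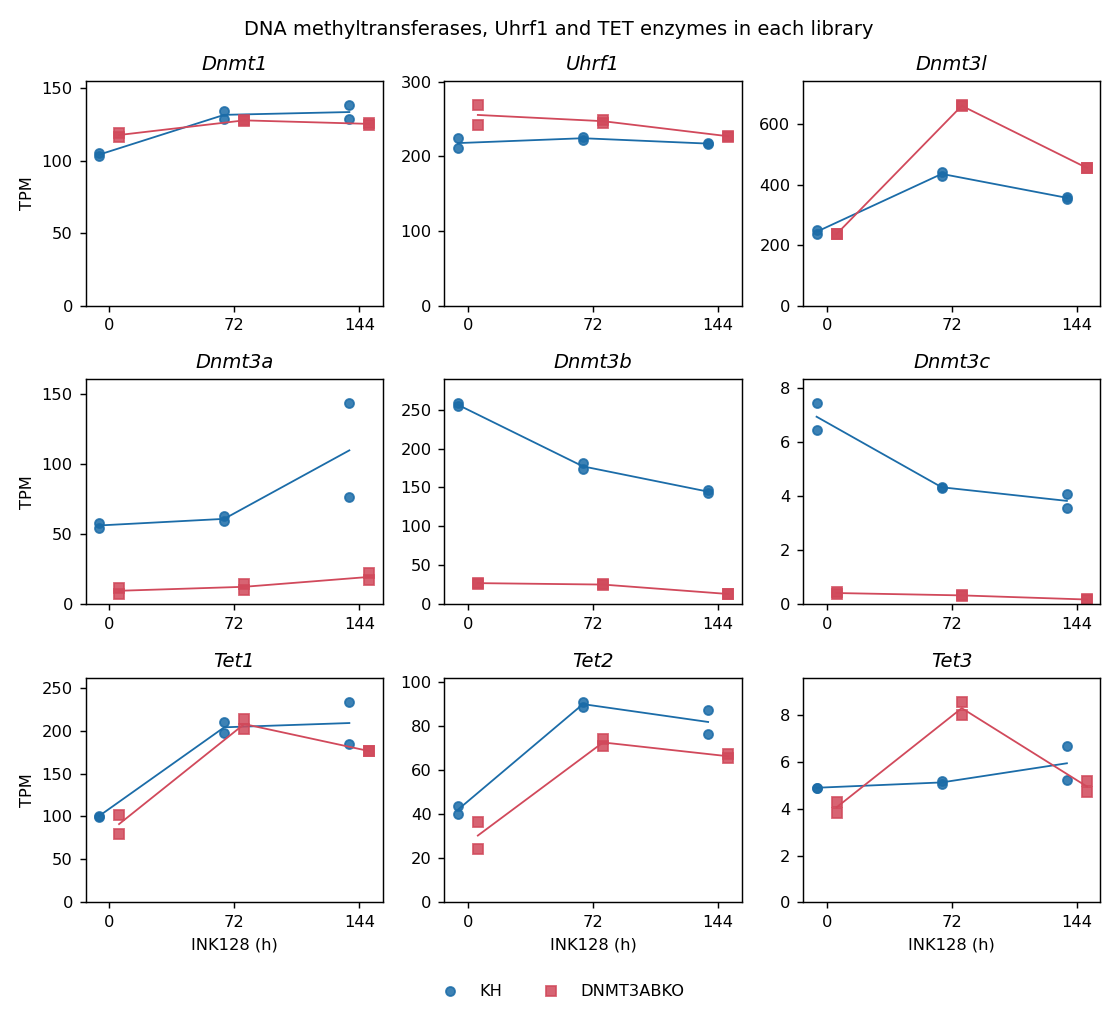
Expression in TPM (vertical axes from 0, 1 panel per gene) against hours of INK128 in KH (circles) and DNMT3ABKO (squares) cells; each point is 1 library and lines join group means of 2 libraries. Dnmt3l, Tet1 and Tet2 stood higher in every treated library than in every 0 h library of the same line, Dnmt3b and Dnmt3c fell in KH cells, and Tet3 peaked at 72 h in DNMT3ABKO cells.

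Whether the enzymes changed under mTOR inhibition was addressed by comparing 72 h and 144 h with 0 h in each line. In KH cells at 72 h, 6 of the 9 genes passed the test (limma, Benjamini-Hochberg adjusted p under 0.05 over all 15727 genes). Dnmt1, Dnmt3l, Tet1 and Tet2 were higher, where 28.3% of all tested genes were called higher, and Dnmt3b and Dnmt3c were lower, where 19.5% were called lower. At 144 h the same 6 genes passed in the same directions and Dnmt3a was also called higher, against a background of 27.4% higher and 23.9% lower. In DNMT3ABKO cells at 72 h, 4 genes were called, all higher (Dnmt3l, Tet1, Tet2 and Tet3; background 34.3% higher and 21.6% lower). At 144 h, 4 were called higher (Dnmt3a, Dnmt3l, Tet1 and Tet2) and 2 lower (Uhrf1 and Dnmt3b), against 31.4% and 26.2% of all genes. The median over the 9 genes was 0.11 and 0.35 on the log2 scale in KH cells at 72 and 144 h, beside 0.08 and 0.05 over all genes tested, and 0.36 and 0.23 in DNMT3ABKO cells, beside 0.12 and 0.05.

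Between 72 and 144 h fewer genes moved. In KH cells Dnmt3b and Dnmt3l fell further or back and none was called higher, where 7.24% of all genes were called higher and 15.6% lower. In DNMT3ABKO cells Dnmt3b, Dnmt3l and Tet3 fell, against 8.81% higher and 18.5% lower over all genes. Rescaling each library by the median ratio to the other libraries moved the median of all genes by over 0.1 in 1 comparison, DNMT3ABKO at 72 h, by -0.12. On that scale Dnmt3l, Tet1, Tet2 and Tet3 still rose there, by 1.34, 1.05, 1.13 and 0.76, whereas Uhrf1 (-0.18, limma adjusted p = 0.004442) and Dnmt3b (-0.23, adjusted p = 0.003979) were then called lower and Dnmt1 turned from 0.12 to -0.02 without a call. The share of higher among all called genes then moved from 59.1% to 46.4% in KH cells at 72 h, from 61.3% to 48.5% in DNMT3ABKO cells at 72 h, and from 31.7% to 43.9% and 32.3% to 47.6% for 144 h against 72 h in KH and DNMT3ABKO cells.

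**Figure D2:**
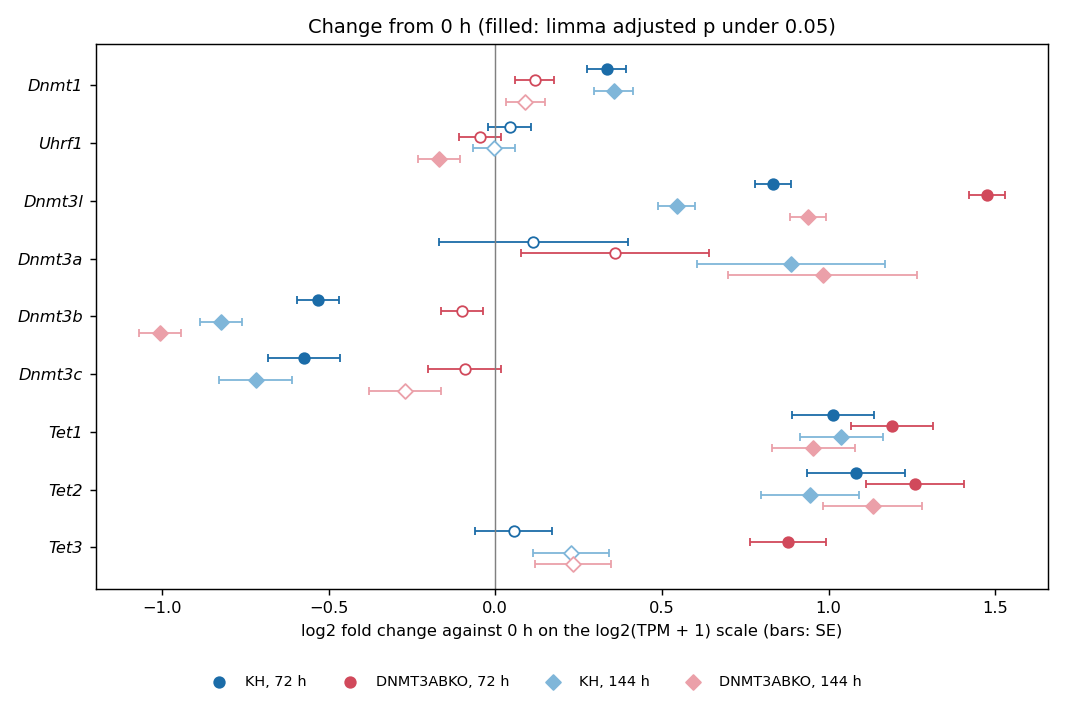
Log2 fold change against 0 h on the log2(TPM + 1) scale (horizontal axis, bars are standard errors) for each gene at 72 h (circles) and 144 h (diamonds) in KH (blue) and DNMT3ABKO (red) cells; filled symbols passed limma at an adjusted p under 0.05. Tet1 and Tet2 lay between 0.94 and 1.26 in all 4 comparisons, Dnmt3l between 0.54 and 1.48, and Uhrf1 between -0.17 and 0.04.

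Of the maintenance pair, Dnmt1 rose in KH cells and Uhrf1 was not called there. Dnmt1 (mm10 chr9:20907209-20959888, minus strand, protein-coding) was at 103 and 105 TPM in KH cells at 0 h, 134 and 129 TPM at 72 h, and 138 and 129 TPM at 144 h. Both treated pairs lay above the 0 h pair, and the log2 change was 0.33 ± 0.06 (SE) at 72 h (limma adjusted p = 0.001171) and 0.35 ± 0.06 at 144 h (adjusted p = 0.000637). In DNMT3ABKO cells its values were 116 and 119 TPM at 0 h, 127 and 128 TPM at 72 h, and 124 and 126 TPM at 144 h. These pairs did not overlap either, but the changes of 0.12 ± 0.06 and 0.09 ± 0.06 did not pass the test (adjusted p = 0.1118 and 0.211). The lines did not differ beyond the test in this response, with a difference of -0.22 ± 0.08 at 72 h (adjusted p = 0.1913) and -0.26 ± 0.08 at 144 h (adjusted p = 0.08054), and the latter was called without DNMT3ABKO 0 h replicate 1 (-0.28, adjusted p = 0.04824) or replicate 2 (-0.25, adjusted p = 0.04831).

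Uhrf1 (mm10 chr17:56303321-56323486, plus strand, protein-coding) stood about 2 times as high as Dnmt1. It was at 211 and 224 TPM in KH cells at 0 h, 226 and 222 TPM at 72 h, and 218 and 216 TPM at 144 h, so that the groups overlapped. In DNMT3ABKO cells it was at 242 and 269 TPM at 0 h, 245 and 249 TPM at 72 h, and 226 and 228 TPM at 144 h, where both libraries lay below both 0 h libraries. That fall of -0.17 ± 0.06 was called (limma adjusted p = 0.04326), but leaving out any single library other than DNMT3ABKO 0 h replicate 1 or KH 0 h replicate 1 or 2 ended the call, and without DNMT3ABKO 0 h replicate 2 the change was -0.09 (adjusted p = 0.1596). With the replicate number as a block its adjusted p was 0.07107. The RefSeq windows of 250 bases before a gene's start (GRCm38.p6, 32817 windows; 8 of the 9 genes matched) were searched on both strands for 4 words bound by E2F, a family of cell cycle factors. They read TTCCCGC or TTGGCGC, and further TTCGCGC or TTGCCGC. Both windows of Uhrf1 held 1 and the third of 3 windows of Dnmt1 held 2, where 7.89% of all windows held any. A match is a description of these letters only.

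Among the de novo group, Dnmt3l rose in both lines at both times, and more in DNMT3ABKO than in KH cells. Dnmt3l (mm10 chr10:78041947-78063622, plus strand, protein-coding) was at 237 and 251 TPM in KH cells at 0 h, 442 and 429 TPM at 72 h, and 354 and 359 TPM at 144 h. In DNMT3ABKO cells the pairs were 236 and 238 TPM, 662 and 658 TPM, and 456 and 454 TPM. All treated libraries lay above all 0 h libraries, and at 72 and 144 h both DNMT3ABKO libraries lay above both KH libraries, whereas the means at 0 h were 244 ± 9.94 and 237 ± 1.22 TPM. The log2 change was 0.83 ± 0.05 in KH and 1.48 ± 0.05 in DNMT3ABKO cells at 72 h (limma adjusted p = 3.045e-06 and 6.559e-08), and 0.54 ± 0.05 and 0.94 ± 0.05 at 144 h (adjusted p = 2.537e-05 and 3.111e-07). From 72 to 144 h it fell by 0.29 in KH (adjusted p = 0.004323) and by 0.54 in DNMT3ABKO cells (adjusted p = 6.22e-05).

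The difference between lines in the Dnmt3l response was 0.64 ± 0.08 on the log2 scale at 72 h (limma adjusted p = 0.001334) and 0.40 ± 0.08 at 144 h (adjusted p = 0.01062). It remained called at 72 h without any 1 library, and at 144 h it was lost without KH 144 h replicate 1 (0.39, adjusted p = 0.05821) and with only the compared groups in the model (adjusted p = 0.0645). Aire, which encodes a transcriptional regulator of the thymus and overlaps Dnmt3l on the opposite strand, was at 7.62 to 10.8 TPM at 0 h, 18.6 to 26.8 TPM at 72 h and 14.1 to 16.8 TPM at 144 h over both lines. The sources used here do not state whether reads were counted by strand, and without strand the reads of the overlap cannot be told apart. The window before the second of 3 RefSeq start sites of Dnmt3l, chr10:78049592-78049841 (GRCm38.p6, plus strand), is shown because it was the only one of the 3 to hold an E-box, the word CACGTG (in capitals) bound by MYC-family factors, which lay 44 bases before the start. It was picked after the search, and the deposited values do not show which start site was used.
Dnmt3l: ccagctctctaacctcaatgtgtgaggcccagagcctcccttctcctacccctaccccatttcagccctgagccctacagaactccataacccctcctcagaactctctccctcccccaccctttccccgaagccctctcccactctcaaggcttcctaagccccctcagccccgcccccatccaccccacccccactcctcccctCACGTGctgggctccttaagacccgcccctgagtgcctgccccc
Of all 32817 windows 6.02% held the E-box, and among the 15 windows of these genes only this one and the third window of Dnmt3a did. The Dnmt3l windows held 3 to 5 CpG sites each, where the median of all windows was 6.

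Levels of Dnmt3a and Dnmt3b, the genes of the knockout, checked the labels of the lines. Dnmt3b (mm10 chr2:153649450-153687730, plus strand, protein-coding) was at 255 and 258 TPM in KH cells at 0 h, 181 and 173 TPM at 72 h, and 142 and 147 TPM at 144 h. In DNMT3ABKO cells it was at 26.2 and 27.5 TPM, 25.9 and 24.1 TPM, and 12.7 and 13.0 TPM, which is 8.90% to 14.1% of the KH mean at each time. Every library of DNMT3ABKO lay far below every KH library, as its label says. The values are summed per gene and do not show which exons the remaining reads came from. The fall in KH cells was -0.53 ± 0.06 at 72 h (limma adjusted p = 0.0001173), -0.82 ± 0.06 at 144 h (adjusted p = 4.264e-06) and -0.29 ± 0.06 between them (adjusted p = 0.008884). The step between 72 and 144 h lost its call without KH 72 h replicate 1 (-0.26, adjusted p = 0.08545) or KH 144 h replicate 1 (-0.27, adjusted p = 0.07541). The RNA still seen in DNMT3ABKO cells changed by -0.10 ± 0.06 at 72 h (adjusted p = 0.2066) and fell by 1.01 at 144 h (adjusted p = 5.778e-07).

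The response of Dnmt3b at 72 h differed between lines by 0.43 ± 0.09 (limma adjusted p = 0.02101), with 69.1% of the 0 h mean left in KH and 93.1% in DNMT3ABKO cells. That call was lost without any 1 library of KH at 0 or 72 h or DNMT3ABKO 72 h replicate 1, at adjusted p of up to 0.1132 and differences of 0.38 to 0.46, and with the replicate number as a block (adjusted p = 0.07072). The single RefSeq window before Dnmt3b, chr2:153649199-153649448 (GRCm38.p6, plus strand), is shown because Dnmt3b was called lower in both lines at 144 h.
Dnmt3b: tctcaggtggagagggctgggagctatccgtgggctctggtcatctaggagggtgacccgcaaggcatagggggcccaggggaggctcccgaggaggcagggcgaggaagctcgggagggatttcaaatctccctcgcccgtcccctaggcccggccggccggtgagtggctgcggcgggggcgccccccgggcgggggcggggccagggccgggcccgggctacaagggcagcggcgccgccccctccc
It held 21 CpG sites and neither the E-box nor an E2F word.

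Dnmt3a (mm10 chr12:3806007-3914443, plus strand, protein-coding) was at 57.7 and 54.7 TPM in KH cells at 0 h and 62.7 and 59.1 TPM at 72 h. At 144 h the libraries were at 76.3 and 143.6 TPM, both above the earlier ones but far from each other. The change at 144 h of 0.89 ± 0.28 was called (limma adjusted p = 0.02408), and without replicate 2 of that group, the high library, it was 0.44 and not called (adjusted p = 0.2082). It was also not called without KH 0 h replicate 1 (0.93, adjusted p = 0.07357) or replicate 2 (0.85, adjusted p = 0.09452), or with all listed genes kept (adjusted p = 0.08791). In DNMT3ABKO cells Dnmt3a was at 11.5 and 7.35 TPM at 0 h, 14.4 and 10.2 TPM at 72 h, and 21.9 and 16.9 TPM at 144 h, or 16.8% to 20.2% of the KH mean. The 144 h pair lay above the 0 h pair, with a change of 0.98 ± 0.28 (adjusted p = 0.01321) that was lost without DNMT3ABKO 0 h replicate 2 (0.69, adjusted p = 0.07771) or 144 h replicate 1 (0.80, adjusted p = 0.08849), and with all listed genes kept (adjusted p = 0.05204). From 72 to 144 h the change was 0.77 ± 0.28 in KH cells (adjusted p = 0.079), called with the replicate number as a block (adjusted p = 0.03625) and without KH 144 h replicate 1 (1.22, adjusted p = 0.01591) or either DNMT3ABKO 0 h library (adjusted p = 0.04296 and 0.04303).

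The third of 3 RefSeq windows of Dnmt3a, chr12:3891494-3891743 (GRCm38.p6, plus strand), is shown because it held the other E-box (capitals), 80 bases before the start.
Dnmt3a: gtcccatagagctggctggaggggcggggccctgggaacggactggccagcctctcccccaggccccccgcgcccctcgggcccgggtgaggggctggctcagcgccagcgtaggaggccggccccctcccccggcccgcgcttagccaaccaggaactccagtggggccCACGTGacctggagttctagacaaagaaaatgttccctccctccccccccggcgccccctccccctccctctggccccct
The other 2 windows of Dnmt3a, which overlap each other, held 38 and 40 CpG sites and this one 15.

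Dnmt3c lies 8921 bp past the end of Dnmt3b (mm10 chr2:153696652-153729907, plus strand, protein-coding), and its values are uncertain because the genes are near copies. Of the 2174 stretches of 50 bases in its transcript, 514 (23.6%) also occurred in a Dnmt3b transcript, and of 2124 stretches of 100 bases 241 (11.3%) did. It was at 7.44 and 6.45 TPM in KH cells at 0 h, 4.32 and 4.34 TPM at 72 h, and 4.08 and 3.56 TPM at 144 h. In DNMT3ABKO cells it was at 0.452 and 0.361 TPM, 0.331 and 0.307 TPM, and 0.172 and 0.159 TPM. Dnmt3c thus stood at 2.44% to 2.71% of Dnmt3b in the KH groups and at 1.27% to 1.52% in the DNMT3ABKO groups. It fell in KH cells by 0.57 at 72 h (limma adjusted p = 0.001875) and by 0.72 at 144 h (adjusted p = 0.0003735). In DNMT3ABKO cells its change at 144 h was -0.27 ± 0.11 (adjusted p = 0.0549), which the added 1 TPM compresses at such levels; with 0.1 TPM added it was -0.93 (adjusted p = 0.001865). Whether reads of Dnmt3b entered these values was not tested, and no stretch of this length in Dnmt3c occurred in Dnmt3a.

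Tet1 and Tet2 rose by about 1 on the log2 scale in both lines, while Tet3 stayed low. Tet1 (mm10 chr10:62804570-62908996, minus strand, protein-coding) was at 99.8 and 101 TPM in KH cells at 0 h, 198 and 210.0 TPM at 72 h, and 234 and 184 TPM at 144 h. In DNMT3ABKO cells the pairs were 80.1 and 102 TPM, 214 and 202 TPM, and 176.2 and 176.0 TPM. No treated library overlapped an untreated one, and the log2 change was 1.01 ± 0.12 and 1.04 ± 0.12 in KH cells at 72 and 144 h (limma adjusted p = 0.0001407 and 8.267e-05) and 1.19 ± 0.12 and 0.95 ± 0.12 in DNMT3ABKO cells (adjusted p = 3.205e-05 and 0.0001042). The only RefSeq window of Tet1, chr10:62887325-62887574 (GRCm38.p6, minus strand), is shown beside that of Tet2 because both genes rose together.
Tet1: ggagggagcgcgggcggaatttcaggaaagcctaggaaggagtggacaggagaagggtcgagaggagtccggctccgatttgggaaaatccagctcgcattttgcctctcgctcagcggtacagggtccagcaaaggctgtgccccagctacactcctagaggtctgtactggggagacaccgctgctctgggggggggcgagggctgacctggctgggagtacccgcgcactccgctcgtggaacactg
Its window held 15 CpG sites.

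Tet2 (mm10 chr3:133463679-133545139, minus strand, protein-coding) was at 40.1 and 43.6 TPM in KH cells at 0 h, 88.6 and 90.9 TPM at 72 h, and 87.3 and 76.1 TPM at 144 h. DNMT3ABKO cells had 24.3 and 36.2 TPM, 74.2 and 70.6 TPM, and 65.2 and 67.1 TPM, each pair below the KH pair of the same time. Its change was 1.08 ± 0.15 and 0.94 ± 0.15 in KH cells (limma adjusted p = 0.000265 and 0.0004587) and 1.26 ± 0.15 and 1.13 ± 0.15 in DNMT3ABKO cells (adjusted p = 6.537e-05 and 0.0001043) at 72 and 144 h. The line difference in response was 0.18 ± 0.21 and 0.19 ± 0.21 (adjusted p = 0.7189 and 0.6448), and without DNMT3ABKO 0 h replicate 2 it was 0.46 and 0.47 and called (adjusted p = 0.02454 and 0.01822). The RefSeq window of Tet2 is chr3:133544391-133544640 (GRCm38.p6, minus strand).
Tet2: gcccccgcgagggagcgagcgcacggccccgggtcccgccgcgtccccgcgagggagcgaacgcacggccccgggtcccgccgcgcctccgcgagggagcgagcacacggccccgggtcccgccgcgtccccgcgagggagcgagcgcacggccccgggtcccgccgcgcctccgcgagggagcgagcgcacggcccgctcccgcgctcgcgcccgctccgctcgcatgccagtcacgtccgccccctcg
With 51 CpG sites it was the richest of the 15 windows of these genes, and neither it nor that of Tet1 held the E-box or an E2F word.

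Tet3 (mm10 chr6:83362373-83459084, minus strand, protein-coding) was the one TET gene whose course differed between lines. It was at 4.91 and 4.89 TPM in KH cells at 0 h, 5.20 and 5.06 TPM at 72 h, and 6.68 and 5.22 TPM at 144 h, with changes of 0.05 ± 0.11 and 0.23 ± 0.11 that were not called (limma adjusted p = 0.724 and 0.1209), although the second was called without KH 144 h replicate 2 (0.38, adjusted p = 0.03137). In DNMT3ABKO cells it went from 4.30 and 3.83 TPM to 8.59 and 8.03 TPM at 72 h and back to 4.71 and 5.20 TPM at 144 h. Both 72 h libraries exceeded all other 10 libraries, and the change was 0.88 ± 0.11 from 0 to 72 h (adjusted p = 0.0001295) and -0.65 ± 0.11 from 72 to 144 h (adjusted p = 0.00218). The responses at 72 h differed by 0.82 ± 0.16 (adjusted p = 0.01688), a call lost without any 1 library of KH at 0 or 72 h or of DNMT3ABKO at 72 h, with differences of 0.78 to 0.87 and adjusted p of up to 0.07923. At 144 h they differed by 0.01 ± 0.16 (adjusted p = 0.9872). The transcripts of the 3 TET genes shared no stretch of 50 bases, so their values are separate.

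Between the lines at the same time, Dnmt3a, Dnmt3b and Dnmt3c were lower throughout, which for the first 2 is what the knockout label says, and Dnmt3l and Tet3 were the ones that were higher. At 0 h, 3 genes were called, all lower (Dnmt3a, Dnmt3b and Dnmt3c; 4.92% of all genes were called higher and 4.14% lower). Dnmt3c, at 0.159 to 0.452 TPM in DNMT3ABKO libraries, met the filter of 1 TPM only through KH libraries, at 3.56 to 7.44 TPM. Its calls between lines, at every time, therefore carry no weight beside these shares. At 72 h Dnmt3l (0.60 ± 0.05, limma adjusted p = 4.016e-05) and Tet3 (0.60 ± 0.11, adjusted p = 0.005049) were called higher beside the 3 lower ones, against 9.26% higher and 10% lower. At 144 h Dnmt3l was higher (0.35 ± 0.05, adjusted p = 0.001116) and the same 3 were lower, against 11% and 15.5%. Where the responses themselves were compared, Dnmt3l, Tet3 and the RNA left of the knocked-out Dnmt3b were called at 72 h. All had a higher response in DNMT3ABKO cells (3.38% of all genes were called higher and 1.86% lower). Only Dnmt3l was called, as higher, for the response at 144 h (4.89% and 3.7%). Those backgrounds rest on few libraries: without DNMT3ABKO 0 h replicate 2 2799 genes were called in either direction for 72 h, in place of 823, and 3599 for 144 h, in place of 1351, and without single libraries of the other groups they fell to as few as 365 and 785. Summed with Dnmt3c as 1 gene, Dnmt3b was lower in DNMT3ABKO cells by values of -3.23, -2.79 and -3.41 at 0, 72 and 144 h.

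Uhrf1, Tet2 and Dnmt1 lay near the threshold between lines. Dnmt1 was higher in DNMT3ABKO cells by 0.18 ± 0.06 at 0 h (limma adjusted p = 0.09748), and was called with median-ratio scaling (0.23, adjusted p = 0.02823). Uhrf1 was higher in DNMT3ABKO cells by 0.23 ± 0.06 at 0 h (limma adjusted p = 0.05273), and was called without DNMT3ABKO 0 h replicate 1 (0.30, adjusted p = 0.008388) and with median-ratio scaling (0.28, adjusted p = 0.00229). At 72 h the Uhrf1 difference of 0.14 ± 0.06 (limma adjusted p = 0.1594) was called with median-ratio scaling (0.17, adjusted p = 0.0189). It was also called with only the compared groups in the model (adjusted p = 0.02969) and without either DNMT3ABKO 0 h library. Tet2 was lower in DNMT3ABKO cells by values of -0.48 ± 0.15, -0.31 ± 0.15 and -0.30 ± 0.15 at 0, 72 and 144 h (adjusted p = 0.07278, 0.181 and 0.1708). With median-ratio scaling the Tet2 value at 0 h was -0.43 and called (adjusted p = 0.03556). With only the compared groups in the model Tet2 was called at 72 and 144 h (limma adjusted p = 0.006208 and 0.02648). Without DNMT3ABKO 0 h replicate 2, the library with 36.2 TPM, the value at 0 h was -0.76 (adjusted p = 0.0004925), and leaving out either 0 h library of that line made the other times pass as well (adjusted p = 0.01008 to 0.01144). Those 0 h libraries differed more from each other than any other pair, and all groups share 1 spread in the model.

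**Figure D3:**
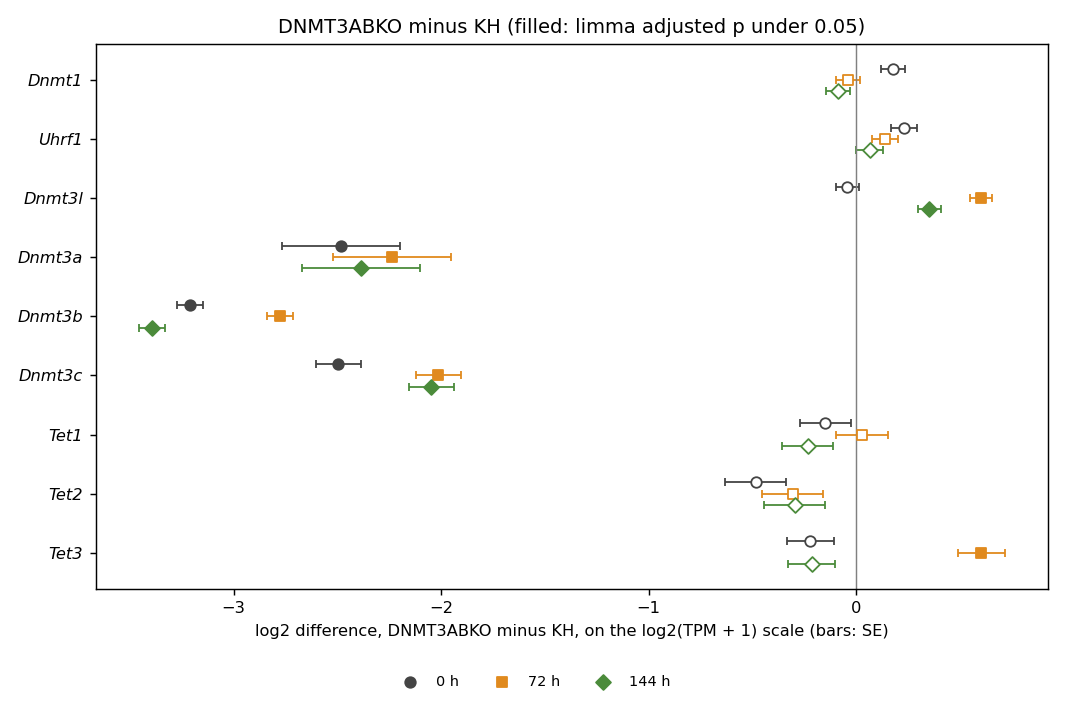
Log2 difference of DNMT3ABKO minus KH on the log2(TPM + 1) scale (horizontal axis, bars are standard errors) for each gene at 0 h (circles), 72 h (squares) and 144 h (diamonds); filled symbols passed limma at an adjusted p under 0.05. Dnmt3a, Dnmt3b and Dnmt3c lay at -2.01 or below at every time, Dnmt3l and Tet3 at 0.60 at 72 h, and the rest between -0.48 and 0.23 apart from Dnmt3l at 144 h (0.35).

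Ratios within a library do not depend on how the library was scaled. They were tested for the genes outside the knockout by exact two-sided permutation, adjusted over 10 tests, where the smallest possible p was 0.009259 for the line and 0.004444 for the treatment. The ratio of summed TET to Dnmt1 began at 1.41 and 1.42 in KH cells, was 2.17 and 2.38 after 72 h, and ended at 2.37 and 2.06. In DNMT3ABKO cells it was 0.934 and 1.20, 2.33 and 2.19, and 1.98 and 1.97. All 8 treated libraries lay above all 4 untreated ones, with a treatment effect of 0.83 on the log2 scale (exact permutation p = 0.004444, adjusted p = 0.01481), and the line effect was -0.20 (adjusted p = 0.06614). The summed TET level itself was 147 ± 3.34 TPM at 0 h and 299 ± 10.2 TPM at 72 h in KH cells, with Tet1 making up 67.6% to 73.7% of it over the 12 libraries.

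The ratio of Dnmt3l to Dnmt1 rose with treatment as well, by 0.72 (exact permutation p = 0.004444, adjusted p = 0.01481), from 2.31 and 2.39 to 3.30 and 3.33 at 72 h in KH cells and from 2.03 and 2.00 to 5.21 and 5.14 in DNMT3ABKO cells. Uhrf1 over Dnmt1 moved the other way, from 2.05 and 2.13 to 1.58 and 1.68 at 144 h in KH cells and from 2.08 and 2.26 to 1.82 and 1.81 in DNMT3ABKO cells. All treated libraries lay below all untreated ones (treatment effect -0.27, exact permutation adjusted p = 0.01481), and DNMT3ABKO cells were higher by 0.13 over the times (adjusted p = 0.03086). Tet1 over Tet2 was higher in DNMT3ABKO than in KH cells by 0.25 (exact permutation adjusted p = 0.03086), from 2.82 to 3.30 against 2.31 to 2.49 at 0 h, 2.86 to 2.88 against 2.23 to 2.31 at 72 h, with the lines overlapping at 144 h, and treatment moved it by -0.07 (adjusted p = 0.2844). Tet3 over Tet1 was 0.0492 and 0.0484 in KH cells at 0 h and 0.0241 to 0.0286 in their treated libraries. In DNMT3ABKO cells it was 0.0537 and 0.0375 at 0 h, 0.0402 and 0.0398 at 72 h, inside the 0 h pair, and 0.0268 and 0.0295 at 144 h. Over both lines and times the treatment effect was -0.64 (exact permutation adjusted p = 0.03086). The line effects on Tet3 over Tet1 (0.18, exact permutation adjusted p = 0.2263) and on Dnmt3l over Dnmt1 (0.29, adjusted p = 0.09259) were not called. The line effects on Uhrf1 over Dnmt1 and Tet1 over Tet2 and the treatment effect on Tet3 over Tet1 were near the limit of the design. Each lost its call when certain single libraries were left out or when labels were exchanged only within a replicate number (adjusted p = 0.05208). The block leaves fewer assignments and raises the smallest possible p, so calls lost under it can come from the coarser test alone. Leaving out a library raises the smallest possible p for the treatment effect but not for the line effects. The cause of the calls lost that way was not tested.

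**Figure D4:**
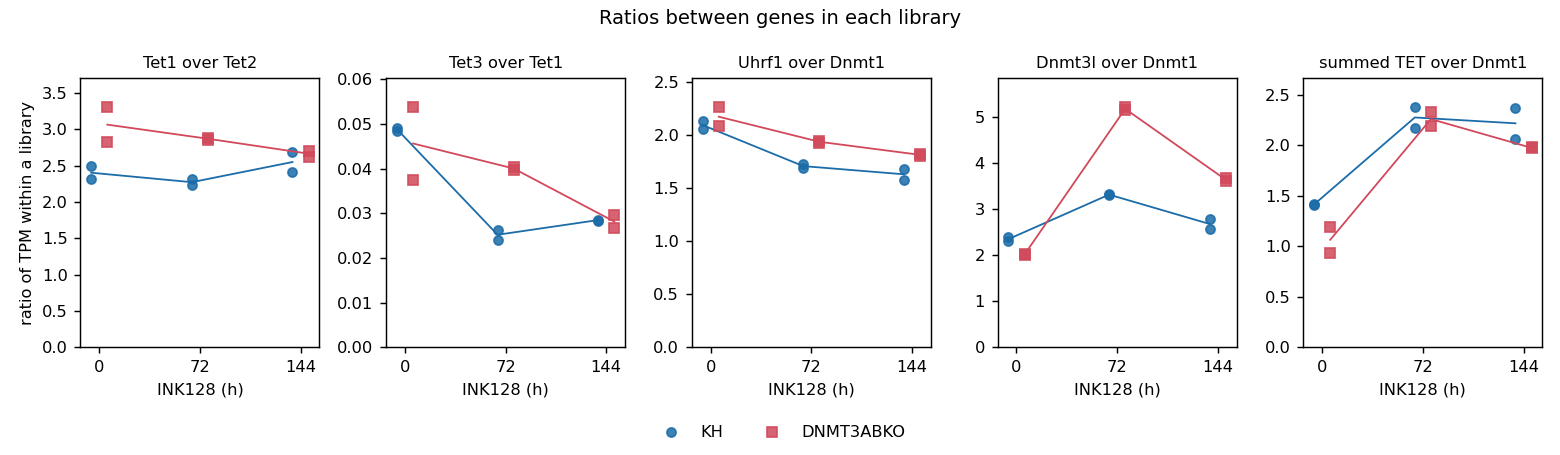
Ratio of TPM values within a library (vertical axes from 0, 1 panel per ratio) against hours of INK128 in KH (circles) and DNMT3ABKO (squares) cells; each point is 1 library and lines join group means. Summed TET over Dnmt1 was above 1.96 in every treated library and below 1.43 in every untreated one, and Uhrf1 over Dnmt1 was lower in all treated libraries than in all untreated ones.

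Partner genes were taken from 6 lists with 56 tested members. After 72 h of INK128, KH cells had 20 of them called higher and 13 lower, beside 28.3% and 19.5% of all genes, and DNMT3ABKO cells 19 in each direction, beside 34.3% and 21.6%. After 144 h 17 were higher and 16 lower in KH cells, beside 27.4% and 23.9% of all genes, against 16 and 20 in the knockout line, beside 31.4% and 26.2%. The lists below hold 7 to 12 tested genes each, and nothing particular to a list is read from its count. The median over the 56 genes of the 6 lists lay between -0.04 and 0.12 in these 4 comparisons, beside 0.05 to 0.12 over all genes. Medians of single lists spread more widely. They ran from -0.34 (methyl donor genes, DNMT3ABKO cells at 72 h) to 0.31 (TET partners and cofactor genes, KH cells at 144 h). Those named are mainly the called genes with the highest and lowest values in a comparison.

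Of the 7 maintenance partners, 2 were called higher and 1 lower in KH cells at both times (28.3% and 19.5% of all genes at 72 h), and 2 higher and 3 lower in DNMT3ABKO cells (34.3% and 21.6% at 72 h). Dppa3, which encodes a germ-cell and oocyte protein that keeps Uhrf1 from chromatin, showed the steepest fall. It was at 108 and 113 TPM in KH cells at 0 h, 32.4 and 37.4 TPM at 72 h, and 23.5 and 27.8 TPM at 144 h, and at 94.8 and 101 TPM, 10.9 and 12.4 TPM, and 13.6 and 14.6 TPM in DNMT3ABKO cells. The groups did not overlap with 0 h, and the change was -1.64 ± 0.10 and -2.07 ± 0.10 in KH and -2.97 ± 0.10 and -2.71 ± 0.10 in DNMT3ABKO cells (limma adjusted p = 2.664e-06, 2.324e-07, 6.162e-08 and 1.973e-08). At 72 h Dppa3 was lower in DNMT3ABKO than in KH cells by 1.51 (adjusted p = 5.326e-06). Usp7, which stabilises Dnmt1 and Uhrf1, changed by 0.00 ± 0.12 in KH and 0.01 ± 0.12 in DNMT3ABKO cells at 72 h and was not called. Cdca7, a partner of the remodeller Hells, was lower in DNMT3ABKO than in KH cells at 144 h by 0.82 (adjusted p = 1.733e-05).

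Of the 9 chromatin partners of de novo methylation, 3 were called higher and 1 lower in KH cells at 72 h (all genes 28.3% and 19.5%), and 4 and 1 in DNMT3ABKO cells (34.3% and 21.6%). Zfp57, a zinc finger protein that guards imprints, rose from 160.0 and 175 TPM to 497 and 499 TPM at 72 h in KH cells (1.57 ± 0.10, limma adjusted p = 3.521e-06) and from 142 and 180 TPM to 430.5 and 436 TPM in DNMT3ABKO cells (1.43 ± 0.10, adjusted p = 3.19e-06). Prdm14, a repressor of Dnmt3 genes in ES cells, was at 3.76 and 4.95 TPM in KH cells at 0 h, averaged 10.7 ± 0.459 TPM (SD, n = 2) at 72 h and was at 4.95 and 5.01 TPM at 144 h. That rise by 72 h (1.13 ± 0.12, adjusted p = 5.703e-05) and fall by 144 h (-0.96 ± 0.12, adjusted p = 0.0003798) were called, while in DNMT3ABKO cells, at 6.09 to 7.21 TPM in all libraries, the changes were -0.08 and -0.04 (adjusted p = 0.603 and 0.7849). Nsd2, a histone methyltransferase, was higher in DNMT3ABKO than in KH cells at 0 h by 0.65 (adjusted p = 0.002651), a call lost with only those groups in the model (adjusted p = 0.08281).

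Among the 11 tested TET partners and cofactor genes, 5 were called higher and 1 lower in KH cells at 72 h (background 28.3% and 19.5%), and 4 and 3 in DNMT3ABKO cells (background 34.3% and 21.6%). Gadd45a, a stress-response gene linked to demethylation, rose in both lines, by 1.08 in KH (limma adjusted p = 4.25e-06) and by 1.11 in DNMT3ABKO cells at 72 h (adjusted p = 1.929e-06). Its relative Gadd45g fell at 144 h by 1.14 in KH and by 1.21 in DNMT3ABKO cells (adjusted p = 0.0002696 and 0.0001345). Idh2, a mitochondrial source of the TET cofactor, was higher in DNMT3ABKO than in KH cells at 0 h, at 78.5 and 89.0 TPM against 47.2 and 49.4 TPM (0.78 ± 0.07, adjusted p = 0.0001249). Of the 12 base excision repair genes, 6 were called higher and 3 lower in KH cells at 72 h, against the same 28.3% and 19.5%, and 2 and 4 in DNMT3ABKO cells, against 34.3% and 21.6%. The glycosylases Neil2 and Neil3 rose in KH cells at 72 h by 1.35 and 1.16 (adjusted p = 8.581e-06 and 2.977e-05), and in DNMT3ABKO cells by 1.39 and 0.55 (adjusted p = 3.814e-06 and 0.001925). Tdg, the glycosylase that removes TET products, fell by 0.25 in KH and by 0.17 in DNMT3ABKO cells at 72 h (adjusted p = 0.007839 and 0.03898), was called higher by 0.34 from 72 to 144 h in KH cells (adjusted p = 0.003035), and both falls lost their call without 1 or more single libraries (adjusted p of up to 0.06504 and 0.1679), the second also with the replicate number as a block (adjusted p = 0.07376).

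Of the 10 methyl donor genes, 5 fell and 2 rose in KH cells at 72 h, where 19.5% of all genes fell and 28.3% rose, and 6 and 4 in DNMT3ABKO cells, where 21.6% and 34.3% did. Mthfd2, a mitochondrial folate enzyme, fell from 95.1 and 108 TPM to 17.3 and 18.6 TPM in KH cells (-2.43 ± 0.10, limma adjusted p = 2.796e-07) and from 75.4 and 91.2 TPM to 28.4 and 31.1 TPM in DNMT3ABKO cells (-1.45 ± 0.10, adjusted p = 2.548e-06). Ahcy, which clears the product of every methyl transfer, fell by 1.01 and 1.16 (adjusted p = 1.163e-06 and 2.056e-07). Of the 7 methyl-CpG readers, 2 were called in each direction in KH cells at 72 h, and 3 higher and 2 lower in DNMT3ABKO cells, beside the same shares of all genes. Zbtb4, a zinc finger reader, fell at 144 h by 1.27 in KH and 1.17 in DNMT3ABKO cells (adjusted p = 1.005e-05 and 1.082e-05).

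**Figure D5:**
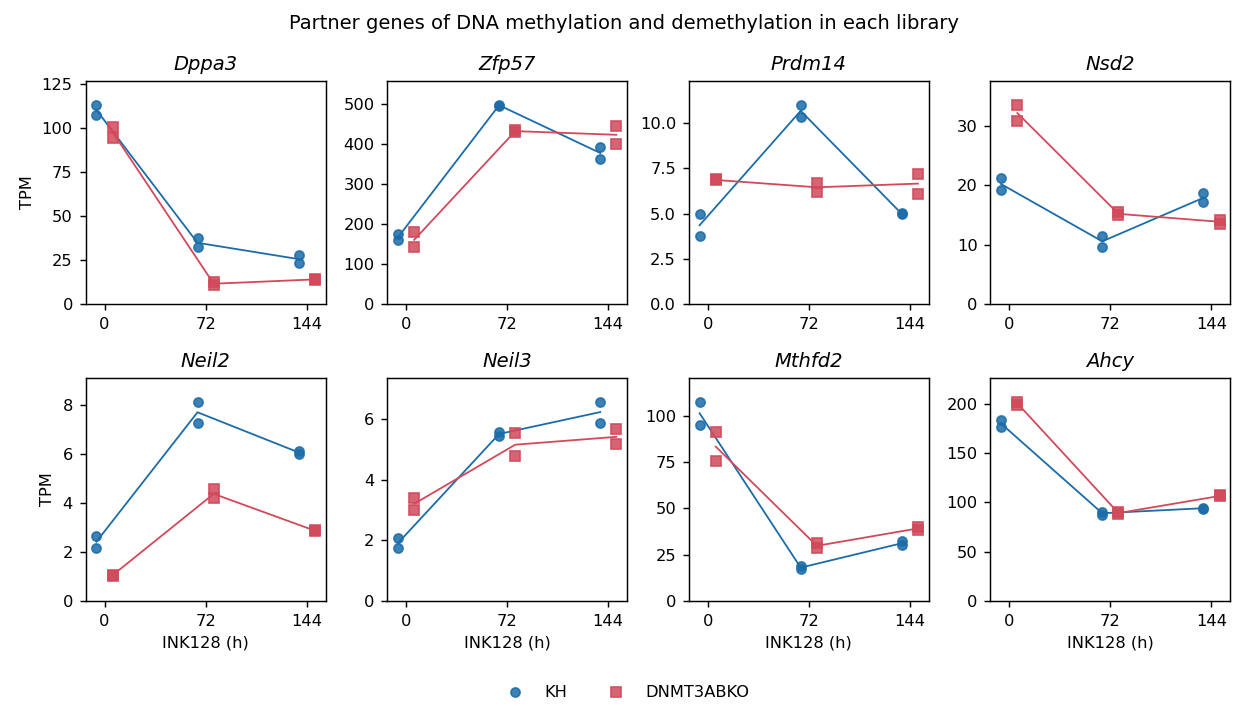
Expression in TPM (vertical axes from 0, 1 panel per gene) of 8 partner genes against hours of INK128 in KH (circles) and DNMT3ABKO (squares) cells; each point is 1 library and lines join group means. Dppa3 fell to 10.9 to 37.4 TPM in treated libraries from 94.8 to 113 TPM at 0 h, Zfp57 was at 363 TPM or more in all treated libraries, and Prdm14 peaked at 72 h in KH cells.

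Since Dnmt1 and Uhrf1 act with replication, 11 replication genes were counted beside them. Of these, 3 rose and 3 fell in KH cells after 72 h (median -0.04, beside 0.08 over all genes, of which 28.3% rose and 19.5% fell), and 4 rose and 1 fell after 144 h (median 0.08, beside 0.05 over all genes, of which 27.4% rose and 23.9% fell). DNMT3ABKO cells had 2 that rose and 6 that fell after 72 h (median -0.32, all genes 0.12, 34.3% and 21.6%), and 1 and 7 after 144 h (median -0.25, all genes 0.05, 31.4% and 26.2%). Their summed level was 1507 to 1566 TPM in treated DNMT3ABKO libraries and 1782 to 1961 TPM in the untreated ones, and its part in the levels of Dnmt1 and Uhrf1 was not tested.

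Over the 12 libraries, genes like each member were sought by Pearson's r of log2(TPM + 1) among 9790 genes averaging 5 TPM or more. Tet1 ran with Prkdc (0.995) and Snrnp200 (0.989), Tet2 with Ttf2 (0.988), and Dnmt3l with Rfng (0.983) and Sclt1 (0.98). Dnmt3b and Dnmt3c shared Tcf7l2 (0.978 and 0.957) and Chst10 (0.972 and 0.956). Dnmt1 ran with Snx29 (0.946), Uhrf1 with Apobec3 (0.956) and Ptpmt1 (0.916), Dnmt3a with Mcf2 (0.938) and Pcsk7 (0.932), and Tet3 with Crybg3 (0.892) and Pou3f1 (0.869). Tet1 and Tet2 correlated with each other at 0.966 and Dnmt3b with Dnmt3c at 0.988. These values only describe 12 libraries that share 2 lines and 3 times.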

How the data were processed

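The authors sequenced ribosome-depleted RNA with ERCC spike-ins and deposited 1 table of TPM per library (STAR 2.7.3a, StringTie 2.0 and cutadapt 2.4 per the submitters' processing notes; mm10). No spike-in rows were listed, so TPM values are shares of each library. Rows repeating a gene identifier (9 to 16 per file) were summed. Values were analysed as log2(TPM + 1), a scale that shrinks differences at low levels. All 15727 genes averaging 1 TPM or more entered limma 3.58.1 (R 4.3.3; lmFit, eBayes with trend, 6 groups, 11 contrasts, Benjamini-Hochberg adjusted p under 0.05) in place of the study's count test, since TPM are no counts. The lines share no libraries, whereas contrasts within a line share their 0 h, 72 h or 144 h libraries. Contrasts between lines and line differences in response use the same libraries again. Ratios were tested by exact permutation within strata (216 or 225 assignments). Scripts were tested on simulated data. Sequences came from RefSeq windows (GRCm38.p6); positions are those of the deposited tables. The members and gene lists were chosen with earlier results of these data known. Partner genes were named as the 3 highest and 3 lowest called genes over the 6 lists per contrast, plus Dppa3, Prdm14, Tdg and Usp7. The 2 genes most like each member were named, except some that are not reported here. The alternatives tried were median-ratio scaling, 0.1 TPM as pseudocount, all listed genes, fits of only the contrast's groups, a replicate block, omission of each library and a minimum log2 fold change of 1. For ratios they were 1 TPM added to each level, the block and the omission of each library. Python 3.11.15, pandas 2.3.3, NumPy 2.4.6 and matplotlib 3.10.9 were used.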

Additional observations from a re-analysis of the deposited data

Results flagged for a closer look

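Among the methylation genes, the difference between lines in the response to mTOR inhibition itself passed limma for Dnmt3b at 72 h (0.43 on the log2 scale, DNMT3ABKO minus KH), for Dnmt3l at 72 h (0.64) and at 144 h (0.40), and for Tet3 at 72 h (0.82). The libraries that each of these rests on are given with the gene above. Dnmt3b is a gene of the knockout, so its difference sets the RNA left in DNMT3ABKO cells against the intact gene in KH cells. It is not read as a difference in how the lines regulate Dnmt3b.

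Among the partner genes, the 72 h response was higher in DNMT3ABKO cells for Mthfd2 (0.98, limma adjusted p = 0.004404) and lower for Gadd45b (-0.60, adjusted p = 0.0217), Prdm14 (-1.21, adjusted p = 0.003206) and Dppa3 (-1.33, adjusted p = 0.0009851). At 144 h it was higher for Mthfd2 (0.60, adjusted p = 0.02974) and lower for Dppa3 (-0.64, adjusted p = 0.02406), Neil3 (-0.70, adjusted p = 0.02013) and Nsd2 (-0.99, adjusted p = 0.001521). Without single libraries, the adjusted p reached 0.09366 for Gadd45b at 72 h and 0.1129, 0.09329 and 0.08762 for Mthfd2, Dppa3 and Neil3 at 144 h, whereas Mthfd2, Prdm14 and Dppa3 at 72 h and Nsd2 at 144 h kept their calls. The Neil3 difference also lost its call with the replicate number as a block (adjusted p = 0.05382). Gadd45b was at 36.0 to 42.7 TPM at 0 h in both lines, at 36.7 and 37.3 TPM at 72 h in KH cells and at 24.9 and 25.2 TPM in DNMT3ABKO cells. Nsd2 ended at 17.1 and 18.6 TPM in KH and 13.5 and 14.2 TPM in DNMT3ABKO cells at 144 h, after 19.1 to 21.3 and 30.8 to 33.5 TPM at 0 h.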

How the results depend on the processing

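No value of the 9 genes or their named partners turned its direction and held a call under any alternative. A minimum log2 fold change of 1 left 2, 1 and 0 of the 9 genes called in KH cells for 72 h and 144 h from 0 h and for the step from 72 to 144 h, 2 and 0 in DNMT3ABKO cells for 144 h against 0 h and against 72 h, 3 between lines at 72 h, and 0 and 0 for the line differences in response at 72 and 144 h, where 998, 1565, 468, 2332, 718, 517, 285 and 474 of all 15727 genes passed. With only the groups compared in the fit, DNMT3ABKO at 144 h against 72 h had 6 genes called and the line difference at 144 h had 0, with median-ratio scaling the lines differed in 6 genes at 0 h, and without the filter the line difference at 144 h had 2. Leaving out each library in turn gave 6 to 6, 6 to 7 and 1 to 3 genes in KH cells (same order), 4 to 4, 4 to 6 and 3 to 3 in DNMT3ABKO cells, 3 to 4, 5 to 7 and 4 to 5 between lines at 0, 72 and 144 h, and 1 to 4 and 0 to 3 for the line differences at 72 and 144 h. The count for KH at 144 h against 72 h was 1 without KH 72 h replicate 1; that of the line difference at 72 h was 1 without any 1 of KH 0 h or 72 h replicate 1 or 2 or DNMT3ABKO 72 h replicate 1, and that at 144 h was 0 without KH 144 h replicate 1 and 2 or 3 without DNMT3ABKO 0 h replicate 1 or 2. The cause was not tested, beyond the fewer libraries. Every count of the 9 genes between lines at the same time includes Dnmt3a and Dnmt3b, the genes of the knockout, which only check the labels. Each also includes Dnmt3c, which met the filter only through KH libraries, so that its calls between lines carry no weight. Over all genes, the lines differed at 0 h in 5039 genes without DNMT3ABKO 0 h replicate 2, 720 to 822 without a KH 0 h library and 303 with only the compared groups, beside 1425.

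The study states that the time points of a replicate were handled together, and the labels do not say what the numbers mark. Deviations of same-numbered libraries from their group means correlated at -0.104 to 0.1 between times of a line and at 0.336, -0.064 and 0.039 between lines. Ratios with the replicate block, which exchanges labels only within a number, kept their values but not their calls for the line effect on Tet1 over Tet2 (0.25), the treatment effect on Tet3 over Tet1 (-0.64) and the line effect on Uhrf1 over Dnmt1 (0.13). The block leaves fewer assignments and so a larger smallest p, and these losses do not show that the effects depend on the pairing. Without single libraries the line effects ranged from 0.21 to 0.29 (Tet1 over Tet2), 0.09 to 0.26 (Tet3 over Tet1), 0.11 to 0.15 (Uhrf1 over Dnmt1), 0.27 to 0.31 (Dnmt3l over Dnmt1) and -0.26 to -0.14 (summed TET over Dnmt1), and the treatment effects from -0.13 to -0.01, -0.77 to -0.51, -0.30 to -0.24, 0.68 to 0.77 and 0.74 to 0.92. The block in the limma fit changed 3 of 99 calls of the 9 genes, given with the genes, and 8 of 93 of their partners, among them the fall of Tdg in DNMT3ABKO cells at 72 h and the Neil3 line difference at 144 h. Over all genes it moved the line difference at 72 h from 823 to 545 calls. Every adjusted p rests on 2 libraries per group and 1 line per genotype, and line, clone and culture cannot be told apart.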
